A study of Homo sapiens with 12 samples.

Results

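The enzymes that make deoxynucleotides (dNTPs) and keep the dNTP pool clean were followed in PANC-1 cells, a human pancreatic ductal adenocarcinoma line. They comprised 9 genes, TYMS, TK1, RRM1, RRM2, RRM2B, DUT, DCTPP1, NUDT1 and SAMHD1, found on the arrays by gene symbol. The arrays held 14 probes for these 9 genes among 47323 probes and 20046 named genes in all. Total RNA was measured on Illumina bead arrays in 3 groups of 4 arrays. The groups were untreated cells, cells given 1 µM tamoxifen for 48 h and cells given 4 µM tamoxifen for 48 h. All were PANC-1 cells described by the study's title as inducibly expressing E47, a basic helix-loop-helix transcription factor encoded by TCF3. The sources used here do not describe the construct, whether the line is 1 clone, or any vehicle given to the untreated cells. For the lower dose, 1 µM is the titles' value, whereas the treatment notes attach a volume unit to it. Cells lacking the inducible factor but given tamoxifen were not among the groups, so effects of E47 and of tamoxifen cannot be told apart. The labels do not say whether the 4 arrays of a group came from separate cultures, so p-values rest on an array-to-array spread that may be technical.

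A cell copies its DNA from dNTPs that it makes largely by reducing ribonucleotides, a step carried out by ribonucleotide reductase. Thymidine nucleotides need a further enzyme, thymidylate synthase, or are salvaged from thymidine by a kinase. A second set of enzymes hydrolyses dNTPs that should not enter DNA, such as dUTP and oxidised dGTP. Many of these genes are known to be transcribed mainly around S phase, through E2F and CCAAT-binding factors at their promoters.

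At 4 µM tamoxifen 7 of the 8 members with a measurable level were lower than in untreated cells and RRM2B was higher. NUDT1 fell 6.61-fold and TYMS fell 4.50-fold, while RRM2, TK1 and DCTPP1 fell 1.81- to 1.93-fold. The same 7 members were lower at 1 µM, by 1.34-fold (RRM2) to 4.38-fold (NUDT1), and RRM2B was again higher. SAMHD1 was not above background on any of the 12 arrays and has no level here. The other 8 members were above background on all 12 arrays, so none of them entered the tests through 1 group alone.

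Each of these calls had an adjusted p below 0.05 in limma, a linear model fitted over all 18223 features that were above background on at least 4 arrays. A feature is the brightest detected probe of a named gene, or a detected probe with no gene name. Benjamini-Hochberg adjustment ran over all of them, and changes are given as log2 differences of background-corrected intensities. At 1 µM 8 of 8 members were called, 7 lower and 1 higher, when 40.8% of all features were called, 21.2% lower and 19.6% higher. At 4 µM 8 of 8 were called, again 7 lower and 1 higher, against 42.6% of all features, 21.1% lower and 21.5% higher. The median change of the members was -0.64 at 1 µM and -1.10 at 4 µM, beside -0.03 over all features at both doses. With no overlap between the 4 treated and the 4 untreated arrays, 6 members were lower at 1 µM and 7 at 4 µM, when 16.8% and 17.8% of all features met that rule. RRM2B was higher without overlap at both doses, a rule met by 16.2% and 18.6% of all features.

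**Figure D1:**
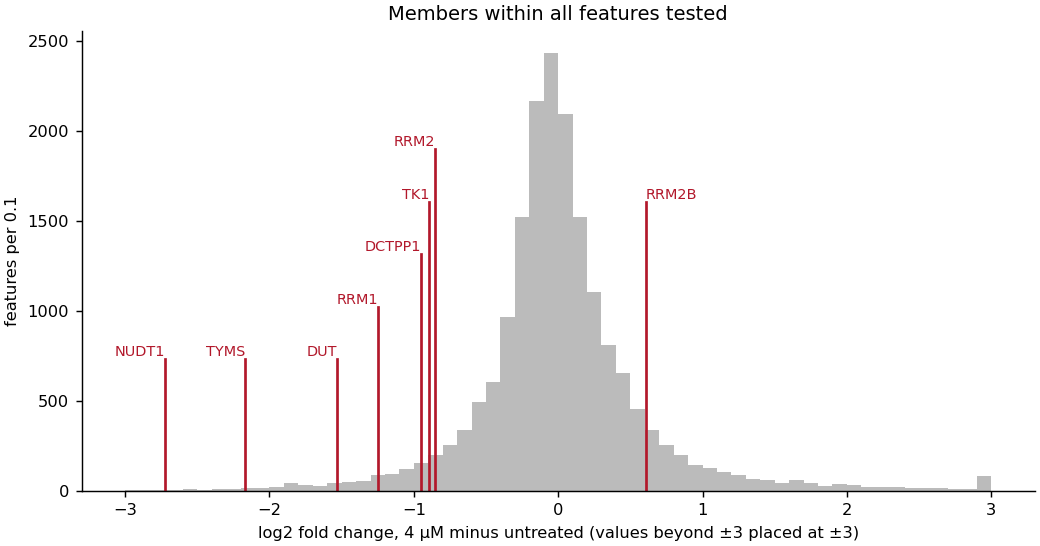
Distribution of the log2 difference between 4 µM tamoxifen and untreated cells over the 18223 features (bars, features per 0.1, those beyond 3 in size placed at the ends), with the 8 measured members marked at their own values. Of these members 7 lie left of 0, from -0.85 for RRM2 to -2.72 for NUDT1, and RRM2B lies at 0.61.

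The arrays of a group were close to one another, with correlations of at least 0.99 within groups, while untreated and treated arrays correlated at 0.957 or less. The first principal component held 71.6% of the variance. On the second, 1 µM arrays 1 and 3 lay at -9.07 and -7.63, apart from arrays 2 and 4 at -21.2 and -20.2. There 4 µM array 1 lay at 3.68 and the other 4 µM arrays at 14.2 to 17.0. The part of this spread in the step between doses was not tested. TCF3, the gene of the inducible factor, changed by -0.79 at 1 µM and by -1.44 ± 0.12 (SE, adjusted p = 4.59e-12 in limma) at 4 µM. The sources used here do not say where its probe lies relative to the construct, so it does not check the labels. Like 7 of the 8 tested members, markers of proliferating cells fell. The 6 measured ones, among them TOP2A, MCM2 and CCNB1, had a summed intensity of 16289 to 17184 on untreated arrays, 6241 to 7629 at 1 µM and 4078 to 4574 at 4 µM, and their part in the members' changes was not tested. In RNA from whole cultures, fewer cycling cells and less RNA per cell cannot be told apart. The 6 ductal epithelial markers were above background in every group, and 5 of them were higher at 4 µM, led by the keratins KRT8 (0.87), KRT7 (0.83), KRT18 (0.65) and KRT19 (0.64). For KRT18 the value was 0.18 (adjusted p = 0.231 in limma) when its probes were averaged. Of 13 measured markers of leukocytes, endothelium, fibroblasts and red cells, PTPRC, CD3E, PECAM1, VWF, CDH5 and HBB were above background on no array. The summed intensity of the 13 was 5421 to 5640 on untreated arrays, 3173 to 3782 at 1 µM and 3509 to 3917 at 4 µM. Among the 7 of them that were tested, 4 rose, 2 fell and 1 was not called at 4 µM. COL1A1 rose by 2.02 and LUM by at least 1.51-fold at that dose, and CD68 (-1.24) and CD14 (-1.07) fell. Their part in the members' changes was not tested.

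Promoter windows are shown for some of the members that fell, since several of their promoters are known for cell-cycle elements. No promoter window was available for RRM2B, the member that rose, so it was not searched. Windows of 250 bases upstream of each listed start (RefSeq, GRCh38.p14) were available for the other 8 of the 9 members, 14 windows in all. They were searched on both strands for E2F sites (TTTCCCGC, TTTGGCGC, TTTCGCGC or TTTGCCGC), the CCAAT box (CCAAT) and the cell cycle homology region (TTTGAA), which are in capitals below. For genes with several starts, the start shown is one that holds a match. Sequences run 5′ to 3′ on the gene's strand and end at the base before the start. The windows are TYMS chr18:657403-657652 (+), DUT chr15:48331947-48332196 (+), RRM2 chr2:10122489-10122738 (+), TK1 chr17:78187053-78187302 (-) and NUDT1 chr7:2241976-2242225 (+).
TYMS: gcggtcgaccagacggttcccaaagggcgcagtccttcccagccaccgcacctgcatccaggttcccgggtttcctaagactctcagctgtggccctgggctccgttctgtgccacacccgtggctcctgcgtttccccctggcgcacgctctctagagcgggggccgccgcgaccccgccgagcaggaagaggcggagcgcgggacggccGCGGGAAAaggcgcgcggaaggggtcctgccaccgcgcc
DUT: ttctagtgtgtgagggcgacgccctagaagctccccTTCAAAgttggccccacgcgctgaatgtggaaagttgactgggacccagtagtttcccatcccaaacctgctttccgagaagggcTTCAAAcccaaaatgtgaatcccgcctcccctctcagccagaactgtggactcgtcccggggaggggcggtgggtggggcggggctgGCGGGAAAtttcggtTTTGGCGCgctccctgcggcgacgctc
RRM2: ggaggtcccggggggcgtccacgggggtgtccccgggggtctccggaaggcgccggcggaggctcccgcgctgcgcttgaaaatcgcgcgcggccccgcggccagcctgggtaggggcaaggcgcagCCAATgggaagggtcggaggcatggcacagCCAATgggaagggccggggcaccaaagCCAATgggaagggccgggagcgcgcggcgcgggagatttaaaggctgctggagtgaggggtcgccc
TK1: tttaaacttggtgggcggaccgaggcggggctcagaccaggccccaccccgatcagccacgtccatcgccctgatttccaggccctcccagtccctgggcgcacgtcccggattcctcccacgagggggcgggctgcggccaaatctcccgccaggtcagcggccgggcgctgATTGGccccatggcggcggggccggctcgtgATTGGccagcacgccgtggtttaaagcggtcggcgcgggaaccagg
NUDT1: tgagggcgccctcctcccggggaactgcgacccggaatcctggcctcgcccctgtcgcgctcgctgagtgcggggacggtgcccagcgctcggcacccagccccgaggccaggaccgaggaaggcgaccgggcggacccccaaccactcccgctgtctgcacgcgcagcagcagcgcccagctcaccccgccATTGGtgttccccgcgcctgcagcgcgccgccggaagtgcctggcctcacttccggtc

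An E2F site was in 2 of the 14 member windows (14.3%), 1 each of TYMS and DUT, and in 2.79% of the 35114 windows searched. The TYMS match lies 39 bases before the start. The DUT window holds matches 42 and 27 bases before the start and TTTGAA matches at 214 and 129 bases, and the other DUT starts hold none of these. TTTGAA was in 2 of the 14 member windows (14.3%) and in 13.3% of all windows. The CCAAT box was in 6 of the 14 member windows (42.9%) and in 32% of all windows. It had 3 matches before the RRM2 start shown (at 123, 93 and 66 bases), 2 before the TK1 start shown (77 and 46 bases) and 1 before the NUDT1 start shown (58 bases). RRM1 held 1 (28 bases), with a TTTGAA match at 199 bases, and SAMHD1 held 2 (49 and 38 bases), while no DCTPP1 window held an E2F, CCAAT or TTTGAA match. The TK1 and NUDT1 starts not shown also held none of these, and the RRM2 start not shown held 1 CCAAT match (249 bases). E-boxes (CANNTG), the element that E47 and its relatives bind, were in 5 of the 14 member windows (35.7%) and in 61.8% of all windows. The CACCTG form, in 17.5% of windows, was found before TYMS (202 bases) and RRM1 (158 bases). The CAGCTG form, in 14% of windows, was found before TYMS (166 bases) and before a second NUDT1 start (146 bases). Windows of nearby starts overlap for DUT, RRM2 and TK1, so the shares over the 14 windows count some bases more than once. A match describes the letters only.

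Thymidylate synthase (TYMS) methylates dUMP to dTMP with a folate cofactor and is the target of fluoropyrimidine drugs. Its intensity was 11465, 9458, 10659 and 10538 on the untreated arrays, 3661, 4160, 3166 and 3587 at 1 µM, and 2751, 2450, 1889 and 2381 at 4 µM. The 3 groups did not overlap, and every array at 4 µM lay below every array at 1 µM. TYMS fell by 1.54 ± 0.12 on the log2 scale at 1 µM (adjusted p = 7.36e-13 in limma) and by 2.17 ± 0.12 at 4 µM (adjusted p = 6.25e-17, 95% interval -2.41 to -1.93). At 4 µM 0.291% of all features had a lower value.

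Thymidine kinase 1 (TK1) phosphorylates thymidine in the cytosol and so feeds dTMP from salvage. It read 2853, 2577, 3016 and 3127 in untreated cells, then 1714, 2267, 1941 and 1949 at 1 µM, and 1387, 1721, 1537 and 1619 at 4 µM. Both treated groups lay below all untreated arrays, and the treated groups overlapped by 1 array of the 4 µM group, which lay above the lowest array at 1 µM. TK1 fell by 0.56 ± 0.11 at 1 µM (adjusted p = 0.000108 in limma) and by 0.89 ± 0.11 at 4 µM (adjusted p = 4.11e-08).

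**Figure D2:**
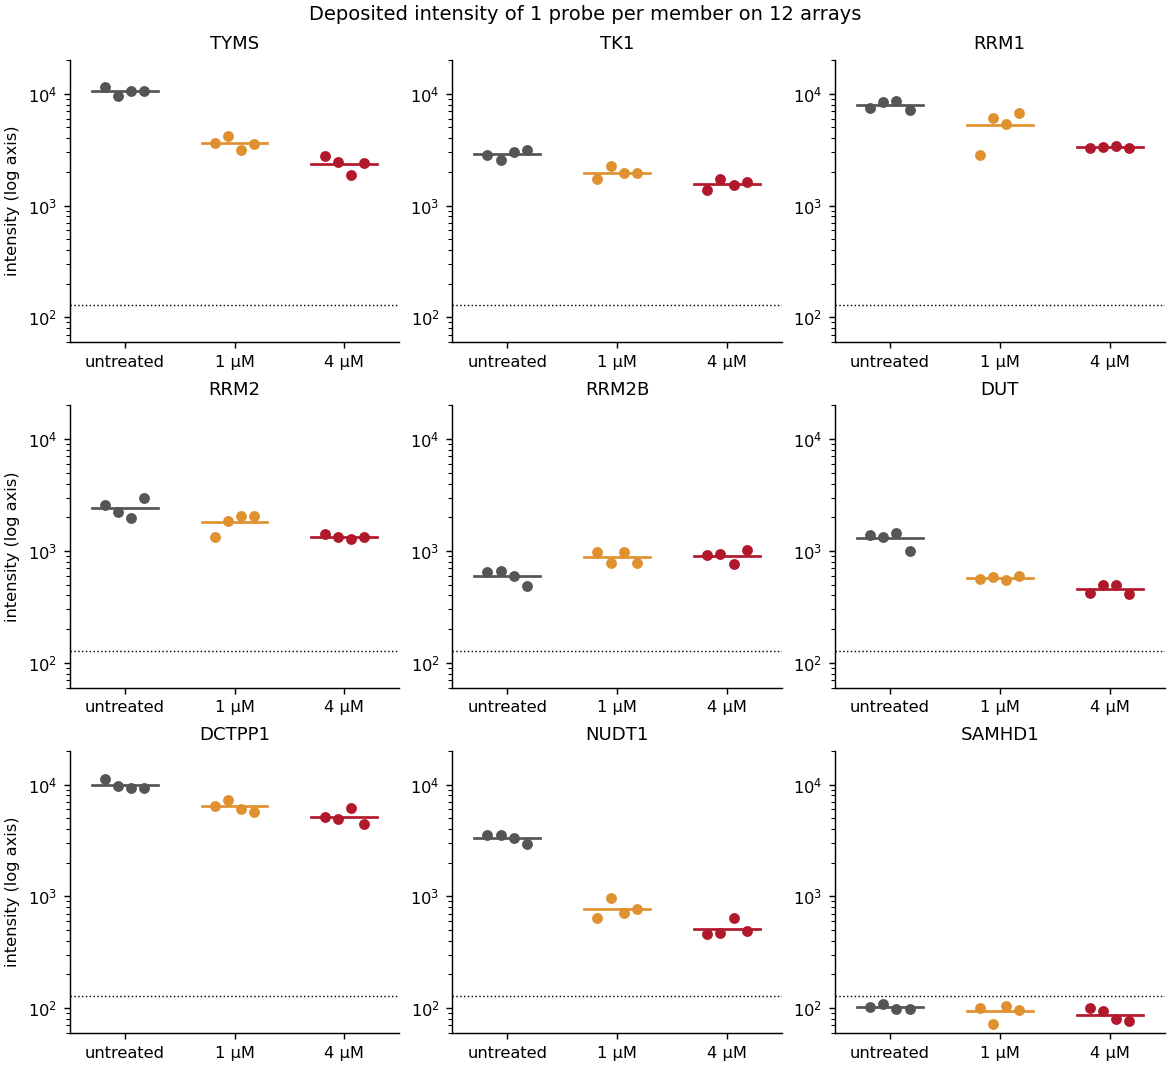
Deposited intensity (log axis) of each member's brightest probe on every array, with points for the 4 arrays of each group and horizontal bars at group means. The dotted line marks the background threshold of 128.6, below which all 12 SAMHD1 values lie, while TYMS, DUT and NUDT1 show no overlap between any 2 groups.

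Ribonucleotide reductase is built from a large subunit, RRM1, which holds the active and regulatory sites, and a small subunit, which is either RRM2 in cycling cells or RRM2B, a target of p53 that serves repair and mitochondrial DNA. RRM1 read 7432, 8369, 8532 and 7143 in untreated cells, 2839, 6098, 5382 and 6770 at 1 µM, and 3278, 3349, 3377 and 3267 at 4 µM. The first 1 µM array lay below all arrays at 4 µM, while the other 1 µM arrays lay between the untreated and the 4 µM arrays. The coefficient of variation of RRM1 was 8.70% among untreated arrays, 32.6% for 1 µM and 1.61% for 4 µM. RRM1 fell by 0.65 ± 0.16 at 1 µM (adjusted p = 0.00114 in limma) and by 1.25 ± 0.16 at 4 µM (adjusted p = 5.11e-08). Without the first 1 µM array its change at 1 µM was -0.37 (adjusted p = 0.0108 in limma).

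RRM2 read 2549, 2242, 1965 and 2972 in untreated cells, 1325, 1860, 2071 and 2038 at 1 µM, and 1412, 1326, 1278 and 1333 at 4 µM. All 4 µM arrays lay below all untreated arrays, but the untreated and the 1 µM arrays overlapped. RRM2 fell by 0.85 ± 0.13 at 4 µM (adjusted p = 1.73e-06 in limma) and by 0.42 ± 0.13 at 1 µM (adjusted p = 0.0093). The 1 µM call was lost without untreated array 4 (-0.32, adjusted p = 0.0574 in limma) and without 1 µM array 1 (-0.28, adjusted p = 0.0852).

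RRM2B was the member that rose, and its brighter probe (ILMN_1698231) read 645, 668, 603 and 489 in untreated cells, 976, 776, 973 and 773 at 1 µM, and 926, 933, 759 and 1015 at 4 µM. All treated arrays lay above all untreated arrays. RRM2B rose by 0.55 ± 0.12 at 1 µM (1.47-fold, adjusted p = 0.0004 in limma) and by 0.61 ± 0.12 at 4 µM (1.52-fold, adjusted p = 0.000108). The dimmer probe (ILMN_2170595) read 184 to 255, 186 to 246 and 199 to 281 in the same groups, and these ranges overlapped. Its change was -0.07 ± 0.13 at 1 µM (adjusted p = 0.706 in limma) and 0.09 ± 0.13 at 4 µM (adjusted p = 0.615), in a fit added after seeing the data that kept every detected probe as a feature. With both probes averaged, RRM2B stood at 0.24 at 1 µM (adjusted p = 0.0905 in limma) and 0.35 at 4 µM (adjusted p = 0.0141).

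DUT hydrolyses dUTP to dUMP, which keeps uracil out of DNA and supplies the substrate of TYMS. Its brightest probe (ILMN_1732688) read 1388, 1346, 1455 and 1004 in untreated cells, 564, 582, 550 and 594 at 1 µM, and 424, 495, 492 and 410 at 4 µM. None of the 3 groups overlapped. DUT fell by 1.19 ± 0.12 at 1 µM (adjusted p = 2.72e-10 in limma) and by 1.53 ± 0.12 at 4 µM (adjusted p = 3.97e-13). A second DUT probe (ILMN_2374778), annotated to another transcript accession, fell by 1.27 ± 0.12 at 1 µM and by 1.47 ± 0.12 at 4 µM (adjusted p = 2.29e-10 and 5.3e-12 in limma, every detected probe a feature). The third DUT probe (ILMN_1721008) carries the same accession as the brightest one but ranged from 554 to 685 (untreated), from 520 to 621 (1 µM) and from 509 to 656 (4 µM). These ranges overlapped, and its changes were -0.07 ± 0.11 and -0.08 ± 0.11 (adjusted p = 0.669 and 0.612 in limma). Which transcripts each probe reads was not tested. With the 3 probes averaged, DUT stood at -0.84 at 1 µM and -1.03 at 4 µM.

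DCTPP1 hydrolyses dCTP and its modified forms. Its brighter probe (ILMN_3242459) read 11320, 9660, 9238 and 9393 in untreated cells, 6426, 7243, 6088 and 5719 at 1 µM, and 5172, 4951, 6126 and 4400 at 4 µM. All treated arrays lay below all untreated arrays, and the treated groups overlapped. DCTPP1 fell by 0.64 ± 0.12 at 1 µM (adjusted p = 2.89e-05 in limma) and by 0.95 ± 0.12 at 4 µM (adjusted p = 2.31e-08). The dimmer probe (ILMN_1763129) fell by 0.80 ± 0.11 and by 1.03 ± 0.11 (adjusted p = 2.7e-07 and 1.16e-09 in limma, every detected probe a feature).

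NUDT1, also called MTH1, hydrolyses oxidised purine dNTPs and had the largest decrease among the members by brightest probe. With a gene's probes averaged it stood at -1.91 at 4 µM, above TYMS at -2.17, and both stood at about the same value at 1 µM (-1.53 and -1.54). Its brighter probe (ILMN_2330243) read 3512, 3500, 3291 and 2941 in untreated cells, 646, 960, 712 and 773 at 1 µM, and 465, 471, 634 and 489 at 4 µM. The 3 groups did not overlap, and the highest 4 µM array lay just under the lowest 1 µM array. NUDT1 fell by 2.13 ± 0.12 at 1 µM (adjusted p = 5.32e-16 in limma) and stood at -2.72 ± 0.12 at 4 µM (adjusted p = 4.62e-19), where 0.0439% of all features had a lower value. The dimmer NUDT1 probe (ILMN_1654068) ranged from 480 to 569 (untreated), from 229 to 323 (1 µM) and from 225 to 288 (4 µM), and fell by 0.93 ± 0.12 and by 1.10 ± 0.12 (adjusted p = 6.06e-08 and 1.56e-09 in limma, every detected probe a feature). Both NUDT1 probes thus fell without overlap between treated and untreated arrays, by different amounts.

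**Figure D3:**
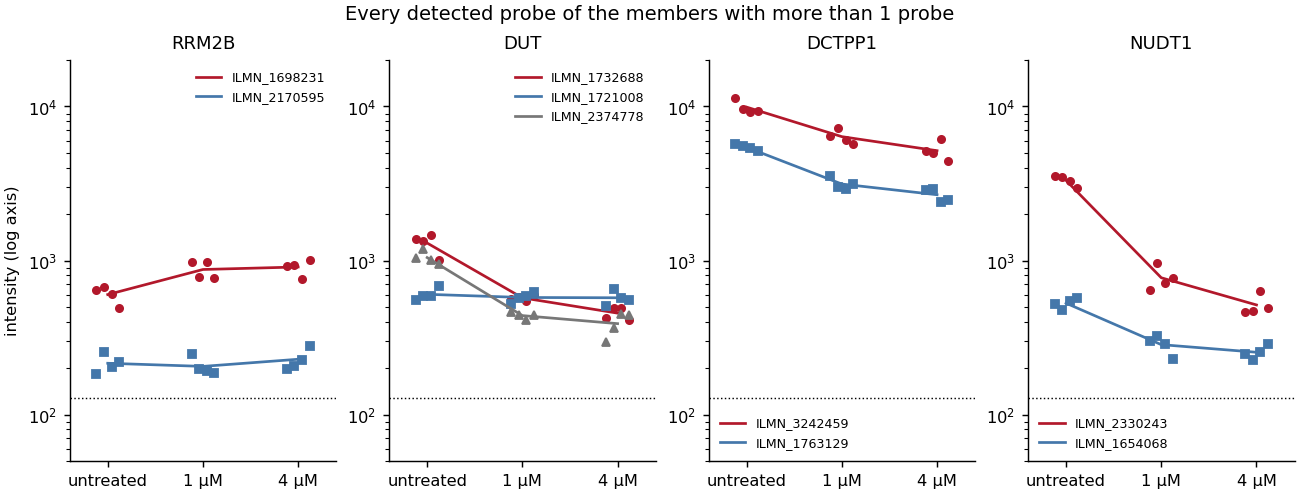
Deposited intensity (log axis) of every detected probe of RRM2B, DUT, DCTPP1 and NUDT1 in the 3 groups, with a point per array, lines through group means and a dotted line at the background threshold of 128.6. The lines of RRM2B probe ILMN_2170595 and DUT probe ILMN_1721008 stay nearly level, while the other probes of these 2 genes shift between untreated and treated arrays.

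SAMHD1, a hydrolase that lowers dNTPs outside S phase, ranged from 97.8 to 108 (untreated), from 72.5 to 105 (1 µM) and from 76.5 to 99.8 (4 µM). These values lie below the background threshold of 128.6, so no fold change is given and absence of the transcript is not shown.

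The step from 1 µM to 4 µM asks whether the members changed further with dose. Of the 8 members 4 were lower at 4 µM than at 1 µM and 0 were higher in limma, when 9.73% of all features were called, 4.84% lower and 4.89% higher. These were TYMS, which fell further by 0.63 ± 0.12 (adjusted p = 0.00046), NUDT1 by 0.59 ± 0.12 (adjusted p = 0.00157; -0.38 with its probes averaged), RRM1 by 0.60 ± 0.16 (adjusted p = 0.013) and RRM2 by 0.43 ± 0.13 (adjusted p = 0.0327). By brightest probe TYMS and NUDT1 were called lower with no overlap between the dose groups, a rule met by 3.75% of all features, and 0 members were called higher with no overlap, as 4.03% of all features were. The dimmer NUDT1 probe differed by -0.17 ± 0.12 (adjusted p = 0.435 in limma, every detected probe a feature), and its dose groups overlapped. DUT (-0.34 ± 0.12, adjusted p = 0.0571 in limma), TK1 (-0.33 ± 0.11, adjusted p = 0.0577) and DCTPP1 (-0.31 ± 0.12, adjusted p = 0.0909) did not pass, with 95% intervals of -0.58 to -0.11, -0.56 to -0.10 and -0.54 to -0.07. The other DUT probes differed by -0.20 ± 0.12 and -0.01 ± 0.11 (adjusted p = 0.354 and 0.973 in limma, every detected probe a feature). With its probes averaged DUT differed by -0.18 (adjusted p = 0.255 in limma). RRM2B differed by 0.06 ± 0.12 (adjusted p = 0.842 in limma, interval -0.19 to 0.31). The median member stood at -0.39 and the median feature at 0.00.

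The calls of RRM1 and RRM2 in this step depended on single arrays. RRM1 lost its call without 1 µM array 2 (adjusted p = 0.0675 in limma) or 4 (adjusted p = 0.0916), and RRM2 lost its call without any of 6 single arrays (1 µM arrays 2, 3 and 4, and 4 µM arrays 2, 3 and 4), with adjusted p of 0.0714 to 0.12. Leaving out 1 µM array 1 instead gave larger changes, -0.87 for RRM1 (adjusted p = 5.57e-06 in limma) and -0.58 for RRM2 (adjusted p = 0.00287). The change at 1 µM was 49.6% of that at 4 µM for RRM2, 52.1% for RRM1, 63.1% for TK1, 67.4% for DCTPP1, 70.9% for TYMS, 77.5% for DUT, 78.2% for NUDT1 and 90.7% for RRM2B. Without 1 µM array 1 the shares were 30.1% for RRM1 and 32.3% for RRM2, in the opposite order. The RRM2B share rests on its brighter probe and ran from 79.6% to 100% with single arrays left out. With its probes averaged, RRM2B changed by 0.24 at 1 µM, which was not called, and by 0.35 at 4 µM. All these shares use the same untreated arrays at both doses and carry no test.

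**Figure D4:**
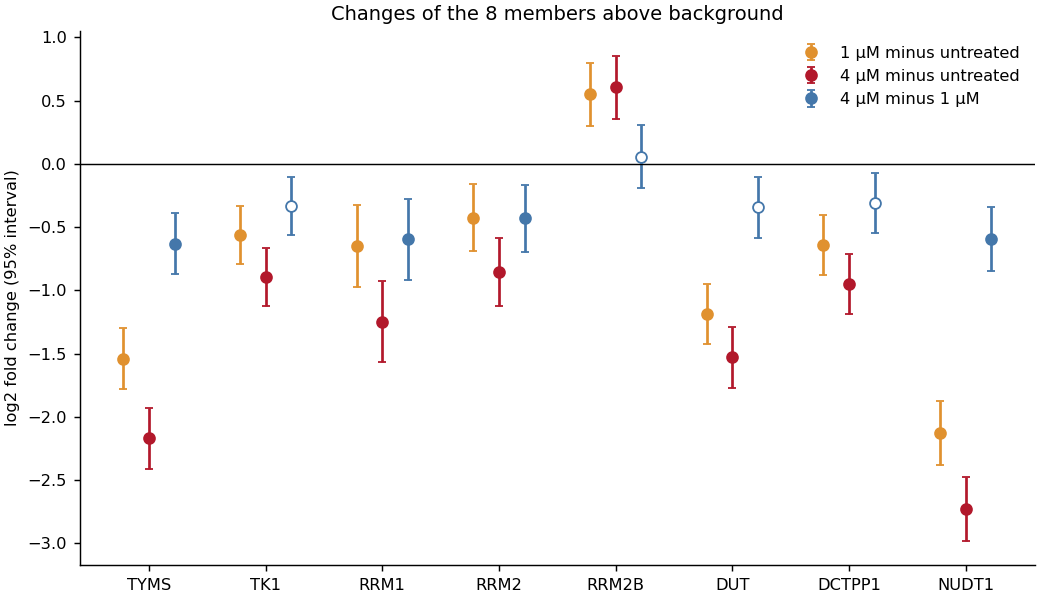
Log2 difference with 95% interval from limma for the 8 measured members in the 3 comparisons, with filled points for those called and open points for those not called. The 4 µM value is below the 1 µM value for 7 members, RRM2B is above 0 at both doses (0.55 and 0.61), and the open points are the 4 µM minus 1 µM values of TK1, RRM2B, DUT and DCTPP1.

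Members with related roles were set against each other within each array, as the difference of their log2 values, and the groups were compared by an exact two-sided permutation test over 15 comparisons. With 4 arrays against 4 the smallest possible p is 0.0286, which became 0.0536 after adjustment here, so none passed 0.05. For the small subunits, RRM2 minus RRM2B was shifted from untreated cells by -0.97 at 1 µM and by -1.46 at 4 µM (each exact p = 0.0286, adjusted 0.0536), but by -0.66 and -1.20 when the probes of a gene were averaged. The shift of TYMS minus TK1 was -0.98 and -1.28 at the same doses (each exact p = 0.0286, adjusted 0.0536). For DUT minus NUDT1 it was 0.94 and 1.20 (each exact p = 0.0286, adjusted 0.0536), but 0.69 and 0.89 when the probes of a gene were averaged. For DUT minus DCTPP1 it was -0.55 and -0.58 (each exact p = 0.0286, adjusted 0.0536), but -0.12 and -0.04 when the probes of a gene were averaged. RRM2 minus RRM1 was shifted by 0.23 at 1 µM (exact p = 0.429, adjusted 0.459) and by 0.39 at 4 µM (exact p = 0.114, adjusted 0.156). Leaving out single arrays gave 0.09 to 0.37 at 1 µM and 0.25 to 0.54 at 4 µM for RRM2 minus RRM1, the lowest without untreated array 3 and the highest without untreated array 4, and 0.10 at 1 µM without 1 µM array 1. Between the doses none of the 5 pairs had an exact p below 0.114.

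The pathway around the members was read from 9 lists of genes. Of 92 genes tested in them, 55 fell and 10 rose at 4 µM, 49 fell and 9 rose at 1 µM, and 12 fell and 2 rose from 1 µM to 4 µM. The median changes of the 92 were -0.37, -0.33 and -0.06, beside the values over all features given above. The following values are log2 changes at 4 µM against untreated cells, called in limma where a verb of change is used.

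Among nucleoside and nucleotide kinases 11 of 19 fell, 0 rose and 8 were not called (median -0.33). NME3, a nucleoside diphosphate kinase, fell by 1.42 ± 0.11 (adjusted p = 1.16e-12), and UCKL1 and UCK2, of the uridine-cytidine kinase family, fell by 0.84 and 0.60. DCK, which salvages deoxycytidine, fell by 0.78. In pyrimidine ring and CTP synthesis 4 of 5 fell, namely the CTP synthases CTPS1 (-0.83) and CTPS2 (-0.34), DHODH (-0.55) and CAD (-0.51), the enzyme of the first steps of the ring. CTPS2 lost its call on leaving out 4 µM array 1, untreated array 1 or untreated array 2 (adjusted p = 0.0634 to 0.102 in limma). UMPS was the gene not called (-0.07). In purine ring synthesis 10 of 12 fell and 1 rose (median -0.58). IMPDH1, on the branch to guanine nucleotides, fell by 1.03 (-0.58 with its probes averaged), PRPS1 and PRPS2, which make the ribose phosphate donor, by 0.95 and 0.79, and PFAS by 0.81. ADSS1 was the purine gene that rose (0.39, named after its value was seen).

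The folate cycle supplies the methyl donor of TYMS, and 5 of its 8 genes fell while 1 rose (median -0.65). SHMT1, which charges folate with a carbon unit from serine, fell by 1.51 ± 0.12 (adjusted p = 1.66e-12), or by 0.88 with its probes averaged. The reduced folate carrier SLC19A1 fell by 1.33, MTHFD1 by 0.90 and the mitochondrial MTHFD1L by 0.72. MTHFD2, another mitochondrial enzyme of the cycle, rose by 0.53 (named after its value was seen).

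Enzymes that remove or recycle nucleosides moved in both directions, with 5 of 10 lower, 1 higher and 4 not called (median -0.20). The surface nucleotidase NT5E fell by 1.81 ± 0.12, the phosphorylases PNP and UPP1 by 0.69 and 0.61, and adenosine deaminase (ADA) rose by 1.69 ± 0.11, which is 3.23-fold (adjusted p = 3.11e-15). Of 11 other NUDIX and house-cleaning enzymes 4 fell, 3 rose and 4 were not called (median -0.02). NUDT14 rose by 1.12 and NUDT9 by 0.51, while NUDT16 fell by 0.72 and NUDT21, a subunit of an mRNA 3′ end cleavage factor rather than a pool enzyme, by 0.80. Of 4 nucleoside transporters SLC29A3 and SLC29A4 rose by 1.13 and 0.68, and SLC29A2 fell by 1.01.

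Glycosylases that excise uracil and oxidised bases act on what the sanitation enzymes let through. In their list, which also holds the endonuclease APEX1, 7 of 11 genes fell and 1 rose (median -0.33). APEX1, not a glycosylase, was among those that fell (named after its value was seen). UNG, the main uracil glycosylase, fell by 1.58 ± 0.13 (adjusted p = 2.32e-12; -0.96 with its probes averaged), NEIL3 by 1.78 and NTHL1 by 0.92. TDG, which removes thymine and uracil from mismatches with guanine, rose by 0.68. In the list for control of the member proteins, which also holds E2F transcription factors and general cell-cycle genes, 8 of 12 fell and 1 rose (median -0.72). Of its E2F factors, E2F2 (-1.01) and E2F1 (-0.32) fell, while E2F3 (-0.15) and E2F4 (-0.24) were not called (named after their values were seen). The cyclin CCNA2 (-2.53), CDC20 (-2.38), CDK1 (-1.88) and CCNF (-1.07), the cyclin that directs RRM2 to degradation, were among those that fell. FZR1, an activator of the anaphase-promoting complex, rose by 0.31 (named after its value was seen). All 6 proliferation markers fell (median -1.85), led by TOP2A (-2.39), CCNB1 (-1.98), MCM2 (-1.89) and MCM5 (-1.81). For MKI67, below background on all 4 µM arrays, the decrease was at least 1.59-fold.

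**Figure D5:**
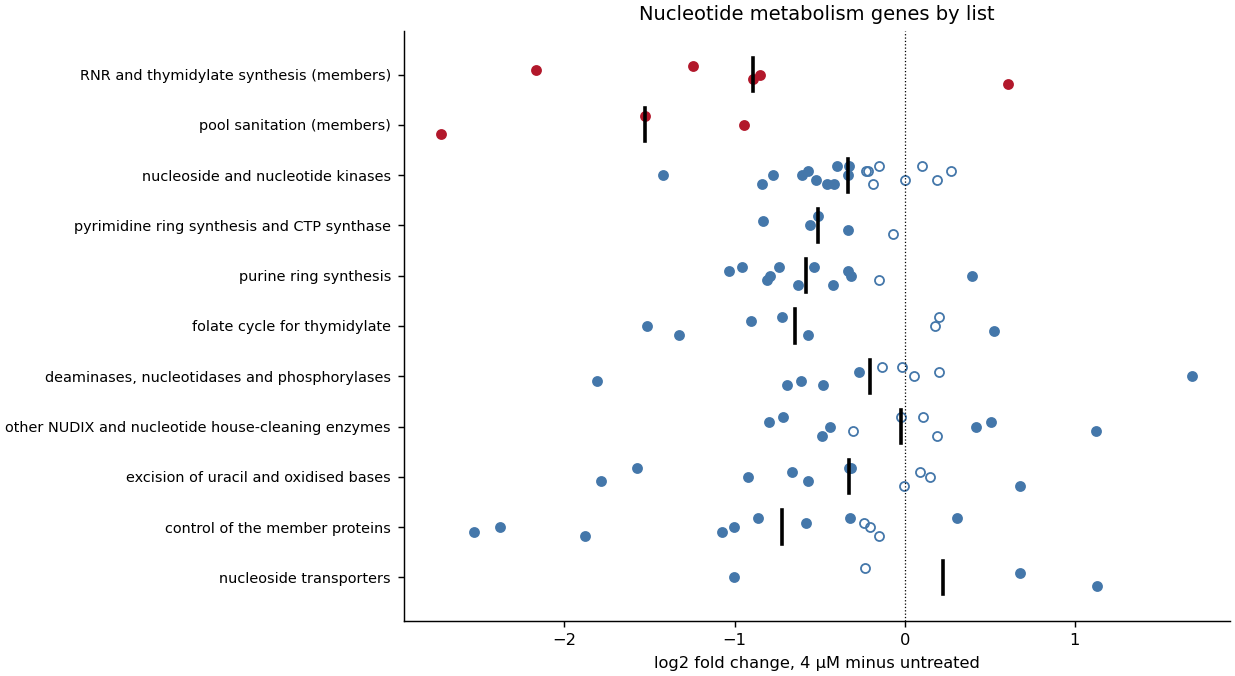
Log2 difference between 4 µM tamoxifen and untreated cells for each tested gene of the members (red) and of the 9 lists around them (blue), filled where called and open where not, with a black bar at the median of each list. The 9 medians run from -0.72 (control of the member proteins) to 0.22 (nucleoside transporters).

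The genes closest to each member were found from the 3 group means, each centred, by Euclidean distance over 12341 other named genes. Since only 3 means enter, likeness is a description. Nearest to TYMS were SPC25 (distance 0.0231, changes -1.55 and -2.20 at 1 µM and 4 µM) and TTK (0.0384, -1.58 and -2.22). CDCA4 (0.00728) and NAV2 (0.0160) were nearest to RRM1, IFITM2 (0.00406) and EPHB4 (0.00766) to RRM2, and RBM22 (0.000985) and ZNF280C (0.00197) to RRM2B. TK1 lay nearest to CTNNBIP1 (0.0103) and ZBTB2 (0.0120), DUT to CKAP2 (0.0231) and PHF19 (0.0240), and DCTPP1 to GPSM2 (0.000585) and TBCD (0.0151). NUDT1 had the most distant neighbours, ASIC2 (0.118, -2.16 and -2.60) and LXN (0.126, -2.27 and -2.89). Among the members themselves the closest pair was TK1 and DCTPP1 (0.0557), and RRM2B was farthest from its nearest member (RRM2, 1.05).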

How the data were processed

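Gene expression was measured in 12 arrays, 4 per group, grouped by sample title. The authors deposited probe intensities on a linear scale, whose sorted values differed over the 12 arrays by a median of 0.0624% and at most 1.65% at a rank. Such closeness is what quantile normalization gives, though no label states that step, and a shift common to all genes would not be seen in these values. The submitters' processing notes name GenomeStudio, without version or settings. Another 24 columns carried names matching no sample and were not used.

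Background was set from the mode of the intensities (102.2) and the SD below it (16.0), at the 95th percentile of a normal curve (128.6), and a probe was detected when above it on at least 4 of 12 arrays. Intensities were corrected by normexp on the signals with offset 50 and taken to log2. A gene was its detected probe of highest mean. Group means were fitted over all 12 arrays with limma 3.58.1 in R 4.3.3 (9 residual and 23.9 prior degrees of freedom), two-sided, with Benjamini-Hochberg adjustment over 18223 features, and adjusted p below 0.05 was called. Errors are standard errors unless named otherwise. Folds come from the corrected values and understate changes of dim probes. The number of arrays limits the precision. Gene symbols came from GEO's platform annotation, updated through RefSeq, with 30113 probes to 1 gene, 8 to several and 17202 to none. The model was tested on simulated data.

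The members, lists and tests were chosen with earlier results of these data known. Named genes were all members, up to 4 genes of each list by size of the called change at 4 µM, and the 2 nearest genes to each member. Alternatives changed the background correction, probe filter, probe choice, variance model, samples, scaling, array weights, replicate block and arrays left out. Same-numbered arrays did not pair, with correlations of residuals from -0.07 to 0.16 over 12 pairs.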

Additional observations from a re-analysis of the deposited data

Results flagged for a closer look

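Among 39 groups of 4 arrays of the members' detected probes, 1 held an array set apart from the others of its group, where chance sets apart about 1 group in 20. On 4 µM array 3 the NUDT1 probe ILMN_2330243 read 634, above the other 4 µM arrays at 465, 471 and 489, with a gap of 0.836 of the group's range. It remained below every 1 µM array.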

How the results depend on the processing

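All 8 members kept their direction and call at 4 µM under each alternative run, and at 1 µM 7 or 8 were called. From 1 µM to 4 µM the count of 4 members was 2 with a normexp offset of 16, 6 with only probes above background on all 12 arrays, and 2 to 5 with single arrays left out. Calls over all features in that step numbered 1773, and 1137 to 1938 with single arrays left out, the fewest without 4 µM arrays 2 (1137) and 3 (1177). With the offset of 16, RRM1 (adjusted p = 0.0541) and RRM2 (adjusted p = 0.0787) lost that call in limma, and the cause was not tested. TK1 passed in that step without background correction (adjusted p = 0.0474), with only probes above background on all arrays (0.0437) or without 1 µM array 1 (0.0317). DUT passed with that filter (0.0435), with only the 2 groups compared (0.0453) or without untreated array 4 (0.0314), and DCTPP1 without 4 µM array 3 (0.0466). With its probes averaged, however, DUT differed by -0.18 in that step (adjusted p = 0.255 in limma). The RRM2B difference between doses was at most 0.142 with single arrays left out, and turned to -8.96e-05 without 1 µM array 4 and to -0.000297 without 4 µM array 4. DUT against DCTPP1 turned to 0.0866 between doses with a gene's probes averaged, where NAV2 stood at -0.39 at 1 µM and -0.70 at 4 µM and ZNF280C at 0.35 and 0.41. With the replicate number as a block, 8, 8 and 4 members were called at 1 µM, at 4 µM and between doses, 7535, 7834 and 1857 features and 60, 66 and 15 list genes, and no member's call changed. In 4 of 12 arrays the best match in another group had the same number. Pair differences without single arrays were computed as values with no test. TYMS against SAMHD1 could not be computed, since SAMHD1 was below background.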
